A study of Mus musculus with 6 samples.

Results

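Apopt1, Macrod1, Mks1, Upp1 and Pnma5 are 5 genes of unrelated function whose transcript levels differed between Hnrnpf knockout and wild type mouse embryonic stem cells (ESCs). They were taken by symbol from the 25170 genes of an RNA-seq table, and all 5 were among the 11785 genes tested, those with a mean of at least 1 FPKM. They had been picked because their levels differed between knockout and wild type libraries, Mks1 and Upp1 after LIF removal and the other 3 over both media, so knockout to wild type ratios are given here as descriptions with no test. The cells were E14 ESCs, an established mouse line kept with or without leukemia inhibitory factor (LIF), which supports self-renewal of mouse ESCs. There were 6 libraries in 4 groups: wild type E14 with LIF (1 library), Hnrnpf KO in E14 with LIF (2 libraries, numbered 1 and 2), wild type E14 after 4 days of LIF removal (1 library) and Hnrnpf KO after the same 4 days (2 libraries, numbered 1 and 2). The labels give neither the deleted part of Hnrnpf nor whether a number marks 1 clone in both media, and do not say that libraries came from separate cultures, so p-values measure only the spread between these libraries.

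Apopt1, now named Coa8, encodes a mitochondrial factor for the assembly of cytochrome c oxidase (complex IV of the respiratory chain). Macrod1 encodes a macrodomain enzyme that removes ADP-ribose from proteins. Mks1 encodes a protein of the ciliary transition zone, the gate at the base of the primary cilium, and its loss in humans causes Meckel syndrome. Upp1 is uridine phosphorylase, which splits uridine into uracil and ribose 1-phosphate, and Pnma5 belongs to the paraneoplastic Ma family, genes derived from the Gag gene of a retrotransposon. Hnrnpf encodes an hnRNP protein with affinity for runs of G in RNA, known as a splicing regulator.

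Levels are FPKM, mapped fragments scaled for transcript length and library size, which allow a comparison between genes; the number of reads behind a value is unknown. The Hnrnpf transcript was at 28.9% and 10.8% of wild type in knockouts 1 and 2 with LIF and at 28.4% and 8.28% after LIF removal. The pluripotency markers Pou5f1, Nanog, Sox2, Zfp42, Dppa5a and Esrrb were detected in every library and summed to between 2659 and 8774 FPKM. The sum was highest in wild type with LIF, where Dppa5a alone gave 6460 FPKM. Pou5f1, Nanog, Sox2, Dppa5a and Esrrb were each highest in that library. Zfp42 was highest in knockout 1 with LIF (412 FPKM against 361 in wild type). Nanog after LIF removal was higher in knockouts 1 and 2 (185 and 146 FPKM) than in wild type (126). Of 7 fibroblast markers, 5 (Col1a2, Col3a1, Postn, Dcn and Lum) were under 1 FPKM in every library, and the 7 summed to between 3.33 and 8.36 FPKM; the primitive endoderm markers summed to between 2.03 and 12.6 FPKM and the trophoblast markers to between 23.7 and 38.7. The part of these markers in the results was not tested. The libraries are bulk samples, in which fewer cells of a type and less RNA per cell cannot be told apart.

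The sequences around the starts of 3 of the genes are shown because they differ most in CG pairs. The Apopt1 window also holds the start of a neighbour on the opposite strand, whose level is given below. Each is the RefSeq promoter window (GRCm38.p6), from 250 bases before to 50 bases after a listed start, 5′ to 3′ on the gene's strand, with every CG in capitals; CG reads the same on both strands and does not overlap itself. The windows are chr12:111713019-111713318 on the plus strand, chr11:9117758-9118057 on the plus strand (the first of 3 listed starts of Upp1) and chrX:73037054-73037353 on the minus strand.
Apopt1: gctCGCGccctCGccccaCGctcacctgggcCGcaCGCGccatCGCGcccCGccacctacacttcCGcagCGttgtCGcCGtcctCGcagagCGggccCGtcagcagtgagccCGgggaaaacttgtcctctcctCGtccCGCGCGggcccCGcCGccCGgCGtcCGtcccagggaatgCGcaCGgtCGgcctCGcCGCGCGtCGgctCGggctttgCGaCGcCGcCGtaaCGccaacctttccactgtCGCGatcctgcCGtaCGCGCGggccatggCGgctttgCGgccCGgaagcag
Upp1: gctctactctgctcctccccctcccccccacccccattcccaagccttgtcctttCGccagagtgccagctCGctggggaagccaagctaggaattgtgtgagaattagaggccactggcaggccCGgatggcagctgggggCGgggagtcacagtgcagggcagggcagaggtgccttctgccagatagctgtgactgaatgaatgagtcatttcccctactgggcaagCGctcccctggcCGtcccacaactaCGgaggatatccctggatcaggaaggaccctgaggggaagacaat
Pnma5: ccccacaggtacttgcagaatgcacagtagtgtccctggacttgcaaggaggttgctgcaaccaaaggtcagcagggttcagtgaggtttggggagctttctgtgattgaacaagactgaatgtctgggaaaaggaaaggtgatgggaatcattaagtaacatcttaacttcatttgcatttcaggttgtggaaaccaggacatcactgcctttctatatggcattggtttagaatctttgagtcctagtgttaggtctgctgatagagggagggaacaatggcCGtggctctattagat
The Apopt1 window held 50 CG pairs, a number reached by 0.855% of 32851 promoter windows of this length, whose median was 7. The Macrod1 windows held 28 and 31, the Mks1 window 20, and the 3 windows of Upp1 between 7 and 13. The Pnma5 window held 1, and 14.1% of windows held as few or fewer. RefSeq extends Pnma5 upstream to position 73039721 on the X chromosome, so a start outside this window is possible. The 3 genes that were higher in knockout cells thus had fewer CG pairs in these windows than the 2 that were lower, a description of 5 genes only.

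**Figure D1:**
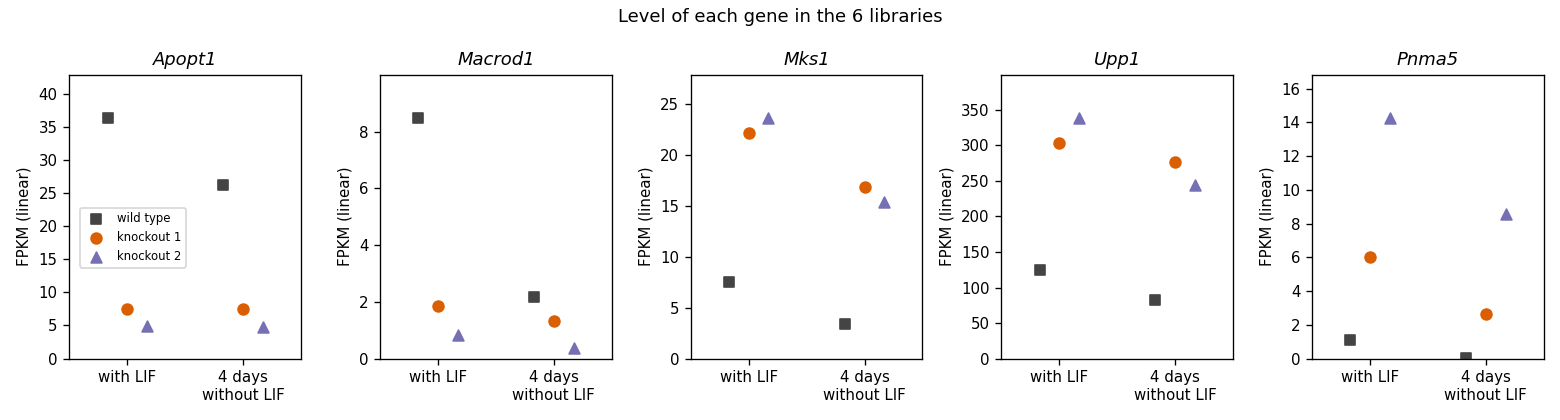
FPKM (linear axis from 0) of each gene in wild type (squares), knockout 1 (circles) and knockout 2 (triangles) with LIF and after 4 days without it; each point is 1 library and each panel has its own scale. Apopt1 and Macrod1 lie below both wild type libraries in all 4 knockout libraries, and Mks1, Upp1 and Pnma5 lie above them.

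Apopt1 (ENSMUSG00000037787, protein coding, GRCm38 chromosome 12, 111713261 to 111755053, plus strand) was lower in every knockout library. It stood at 36.3 FPKM in wild type with LIF and at 7.54 and 4.87 in knockouts 1 and 2, and after LIF removal at 26.3 in wild type and 7.50 and 4.74 in the knockouts. The groups did not overlap, and knockout 2 was the lower of the pair in both media. The knockout mean was 6.20 ± 1.89 FPKM (SD, n = 2) with LIF and 6.12 ± 1.956 (SD, n = 2) after its removal. Knockout 1 kept 20.8% of the wild type level with LIF and 28.6% after LIF removal, and knockout 2 kept 13.4% and 18.04%. On the log2(FPKM + 1) scale the difference over both media was -2.18 (SE 0.22), and all 405 other tested genes of chromosome 12 had a value above it. The choice of Apopt1 on this contrast favours such a rank.

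Macrod1 (ENSMUSG00000036278, protein coding, chromosome 19, 7056810 to 7198057, plus strand) was the gene of the 5 with the lowest mean level, above only 13.1% of tested genes. It read 8.46 FPKM in wild type with LIF, 1.85 and 0.846 in knockouts 1 and 2, then 2.18 in wild type after LIF removal and 1.34 and 0.361 in the knockouts. The knockout values were below both wild type values, with the narrowest gap, from 1.85 to 2.18 FPKM, between knockout 1 with LIF and wild type without it. Knockouts 1 and 2 kept 21.8% and 9.99% of the wild type level with LIF but 61.5% and 16.6% without it, where wild type itself was low. Its knockout mean was 1.35 ± 0.708 FPKM (SD, n = 2) with LIF and 0.851 ± 0.692 (SD, n = 2) without it. The difference over both media was -1.44 (SE 0.35); leaving out wild type with LIF gave -0.83, leaving out wild type after LIF removal gave -2.05, and a pseudocount of 0.1 gave -2.07. Flrt1, which lies inside Macrod1 on the opposite strand, was under 0.4 FPKM in every library.

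Mks1 (ENSMUSG00000034121, protein coding, chromosome 11, 87853215 to 87863803, plus strand) was higher in knockout cells by a similar factor in both numbers. Its level was 7.51 FPKM in wild type and 22.1 and 23.5 in the knockouts with LIF, against 3.41 in wild type and 16.9 and 15.3 in the knockouts after LIF removal. Every knockout library lay above both wild type libraries. The ratio to wild type went from 2.95 (knockout 1) and 3.13 (knockout 2) with LIF to 4.95 and 4.50 without it, a larger ratio over a lower wild type value. The knockouts averaged 22.8 FPKM (SD 1.004, n = 2) with LIF and 16.1 ± 1.08 (SD, n = 2) after its removal. Over both media the difference was 1.72 (SE 0.15).

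Upp1 (ENSMUSG00000020407, protein coding, chromosome 11, 9118103 to 9136170, plus strand) was the most abundant of the 5, with a mean above 97.5% of tested genes. Wild type gave 125 FPKM with LIF and 82.3 after its removal, while the knockouts gave 303 and 338 with LIF and 277 and 244 without. The lowest knockout value was thus above the highest wild type value, and knockout 2 was the higher of the pair with LIF and the lower one after LIF removal. Knockout means were 321 ± 24.9 FPKM (SD, n = 2) with LIF and 261 ± 23.5 (SD, n = 2) without. Ratios to wild type were 2.42 (knockout 1) and 2.70 (knockout 2) with LIF, then 3.37 and 2.96 without it. The difference over both media was 1.50 (SE 0.12).

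Pnma5 (ENSMUSG00000050424, protein coding, X chromosome, 73033981 to 73037103, minus strand) was low in wild type cells and higher in the knockouts. It read 1.09 FPKM in wild type with LIF and 6.02 and 14.2 in knockouts 1 and 2, and 0.0370 FPKM in wild type after LIF removal against 2.64 and 8.57. All 4 knockout libraries were above both wild type libraries, and knockout 2 was above knockout 1 in each medium. Knockout cells averaged 10.1 ± 5.82 FPKM (SD, n = 2) with LIF and 5.60 ± 4.19 (SD, n = 2) after its removal. The ratio to wild type with LIF was 5.54 for knockout 1 and 13.1 for knockout 2; after LIF removal the wild type value was too close to 0 for a ratio to be read, and the log2(FPKM + 1) differences were 1.81 and 3.21. Over both media the difference was 2.41 (SE 0.42) on the log2(FPKM + 1) scale and 4.07 with a pseudocount of 0.1.

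Across all tested genes, 11.9% had all 4 knockout libraries above both wild type libraries and 13% had them all below, and limma at an adjusted p under 0.05 called 5.79% higher and 4.67% lower in knockout cells, 10.5% in all. With LIF both knockouts were above wild type for 34% of genes and below it for 42.9%, and after LIF removal for 35.7% and 38.9%. The 5 genes were chosen on this contrast, so their own place past it carries no further information. In that ranking Apopt1 was the second largest fall and Pnma5 the eighth largest rise, which restates how they were picked.

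**Figure D2:**
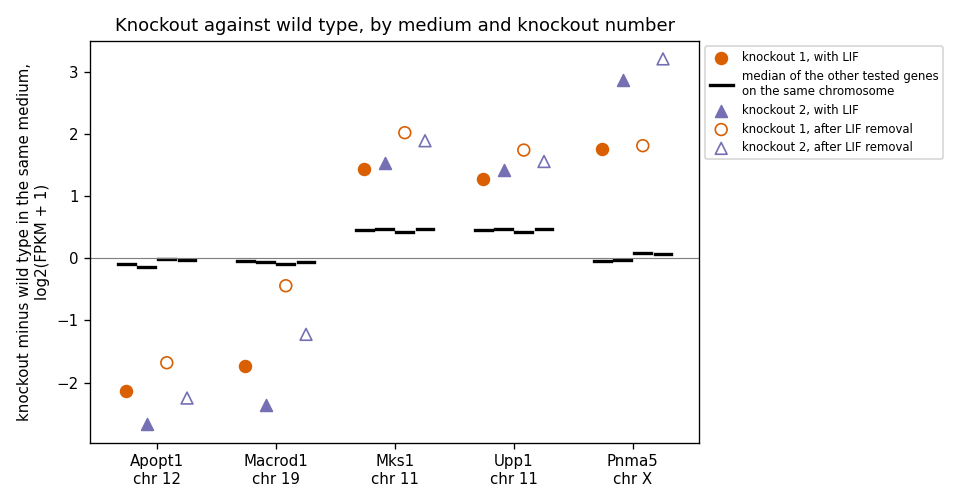
Difference between each knockout library and the wild type library of the same medium, in log2(FPKM + 1), for the 5 genes; filled symbols are with LIF, open symbols after LIF removal, circles knockout 1 and triangles knockout 2, and short black bars the median of the other tested genes on the same chromosome. The bars lie near 0 for chromosomes 12, 19 and X and between 0.42 and 0.48 for chromosome 11.

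Whether the ratio differed between media was tested for the 3 genes chosen over both media. The difference of the knockout effect (after LIF removal minus with LIF) was 0.43 for Apopt1 (95% interval -0.66 to 1.53), 1.21 for Macrod1 (-0.22 to 2.64) and 0.20 for Pnma5 (-1.97 to 2.36), with a limma adjusted p of 0.9996 for each. The intervals are wide, so these values do not show equal ratios in the 2 media. The Pnma5 value also depends on the pseudocount of 1, as its wild type level was 1.09 FPKM with LIF and 0.0370 after LIF removal. Mks1 and Upp1, picked after LIF removal, had values of 0.47 and 0.30, given with no test. No gene of the 11785 passed in this comparison (0%), with 340 at an unadjusted p under 0.05.

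The comparison of knockout number 2 with number 1 sets the knockout libraries against each other, with the wild type libraries entering only its estimate of spread, and was not the contrast used to choose the genes. It takes a number to mark the same line in both media, which the labels do not state. Pnma5 differed most. Knockout 2 had 2.37 times the level of knockout 1 with LIF and 3.25 times after LIF removal, a log2 difference of 1.26 (SE 0.19, 95% interval 0.83 to 1.69, limma adjusted p = 0.0344; 0.976% of tested genes were called, 0.458% higher in number 2 and 0.518% lower). The call was lost with a pseudocount of 0.1 (1.45, adjusted p = 0.280), without a filter on low values (adjusted p = 0.188), without the intensity trend (0.0726) and without any 1 of the 4 knockout libraries (adjusted p from 0.0694 to 0.146), while the difference stayed between 1.10 and 1.45 in these settings.

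Apopt1 in knockout 2 was at 64.5% of knockout 1 with LIF and 63.1% after LIF removal, and Macrod1 at 45.8% and 26.9%. Both pointed the same way in the 2 media, but neither passed (Apopt1 -0.55, SE 0.17, limma adjusted p = 0.182; Macrod1 -0.70, SE 0.31, adjusted p = 0.373). Mks1 (-0.02, 95% interval -0.41 to 0.37) and Upp1 (-0.01, interval -0.32 to 0.29) showed no difference past the threshold between the numbers (limma adjusted p = 0.969 and 0.977). The Hnrnpf transcript was also lower in knockout 2 than in knockout 1 in both media; its part in these differences was not tested.

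LIF removal, a contrast not itself used in the choice although it shares its libraries, went with lower levels of all 5 genes. Each was lower after LIF removal in wild type and in both knockout numbers, which held for 33.3% of all tested genes. Mks1 after LIF removal was at 45.4% of its level with LIF in wild type, 76.2% in knockout 1 and 65.1% in knockout 2. Over both genotypes Mks1 fell by 0.64 (SE 0.14, limma adjusted p = 0.0176), where 21.4% of tested genes were called, 12.7% lower and 8.73% higher. The call rests on both wild type libraries: without either, the difference was -0.48 (adjusted p = 0.106 without the one with LIF, 0.102 without the other).

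Upp1 kept 65.7% of its level in wild type, 91.5% in knockout 1 and 72.1% in knockout 2, and fell by 0.40 (SE 0.11, limma adjusted p = 0.0359). This call was lost in 7 of 13 alternatives, among them quantile normalization (-0.26, adjusted p = 0.122), no intensity trend (adjusted p = 0.0766), no filter (0.0707), either wild type library left out (-0.30, adjusted p = 0.190 without the one with LIF and 0.189 without the other), and either knockout 2 library left out (-0.38, adjusted p = 0.0942 with LIF left out, 0.0986 after LIF removal left out). Apopt1 hardly moved in the knockouts, at 99.5% and 97.4%, against 72.3% in wild type (-0.16, SE 0.21, adjusted p = 0.613). Macrod1 kept 25.8% in wild type, 72.6% in knockout 1 and 42.7% in knockout 2, and did not pass (-0.77, SE 0.33, limma adjusted p = 0.132); without knockout 1 after LIF removal it did (-1.10, adjusted p = 0.0475). Pnma5 kept 43.8% and 60.2% in knockouts 1 and 2; on the log2(FPKM + 1) scale its changes were -1.01 in wild type, where no ratio is read, and -0.95 and -0.67 in the knockouts (over both genotypes -0.88, SE 0.39, adjusted p = 0.146), and passed without knockout 2 after LIF removal (-1.29, adjusted p = 0.0368).

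**Figure D3:**
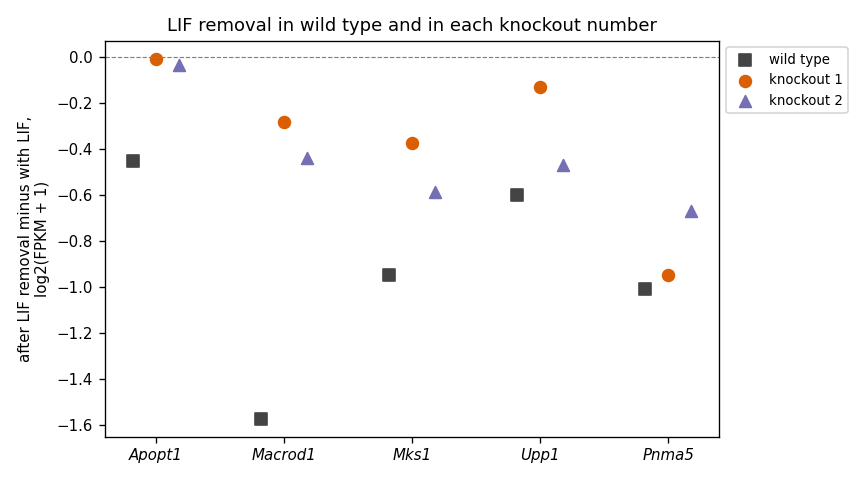
Change after 4 days of LIF removal in log2(FPKM + 1), for wild type (squares), knockout 1 (circles) and knockout 2 (triangles); each point is a difference of 2 libraries and the dashed line marks no change. All points lie below the line, and the wild type point is the lowest for each of the 5 genes, for Pnma5 by little (-1.01 against -0.95 in knockout 1). For Mks1 and Upp1, picked as higher in knockouts after LIF removal, the choice favours a low wild type point. For Pnma5 the wild type fall began at 1.09 FPKM, so the pseudocount of 1 limits its size. The Macrod1 falls in knockouts 1 and 2 began at 1.85 and 0.846 FPKM and are limited in the same way. The share of all tested genes with wild type lowest was not counted, so the pattern is a description of these 5 genes.

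The neighbours of each gene were not used in the choice; their counts are set beside the 10.5% of all tested genes called in either direction. The nearest tested gene to Apopt1 is Bag5, a co-chaperone of Hsp70, on the opposite strand with its start 4 bases away, inside the CG-rich window printed above. Bag5 read 12.9 FPKM in wild type with LIF, 10.5 and 11.2 in the knockouts, then 12.9 in wild type after LIF removal and 12.8 and 12.6 in the knockouts. It did not pass (-0.13, SE 0.13, limma adjusted p = 0.576), and its 6 values ran from 10.5 to 12.9 FPKM where those of Apopt1 ran from 4.74 to 36.3. On the other side Klc1, a kinesin light chain 3.796 kb away, did not pass either (0.23, SE 0.14, adjusted p = 0.312). None of the 10 nearest tested genes of Apopt1 passed (values from -0.32 to 0.27).

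Around Macrod1, 1 of 10 neighbours passed, near the 10.5% of all tested genes. Vegfb, a vascular endothelial growth factor 69.2 kb away, read 60.9 FPKM in wild type with LIF and 31.3 and 24.8 in the knockouts, and 40.7 against 18.6 and 18.04 after LIF removal. It fell by 1.10 (SE 0.13, limma adjusted p = 0.00848), and its groups did not overlap; without either wild type library it was no longer called. The nearest genes, Stip1 (-0.09, adjusted p = 0.656) and Otub1, 0.145 kb from the end of Macrod1 (0.03, adjusted p = 0.918), did not pass.

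Mks1 and Upp1 lie on chromosome 11, whose other 1006 tested genes had a median difference from wild type of 0.42 to 0.48 in the 4 knockout libraries, with 363 called higher and 4 lower over both media. On chromosomes 12, 19 and X the medians lay between -0.14 and 0.08. Less the chromosome median, Mks1 was 0.99 and 1.06 above wild type with LIF, then 1.60 and 1.41 without it, and Upp1 0.82 and 0.96, then 1.32 and 1.08. The part of the chromosome's shift in the 2 genes' differences was not tested. Of the 1006, 5 lay above Mks1 and 9 above Upp1 over both media, ranks that the choice of the 2 genes favours.

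Of the 10 neighbours of Mks1, 4 were higher: Dynll2, a dynein light chain (0.71, limma adjusted p = 0.0208), Supt4a, a transcription elongation factor (0.68, 0.0251), Mrps23, a mitochondrial ribosomal protein (0.52, 0.0219) and Mtmr4 (0.46, adjusted p = 0.0454). On the chromosome as a whole 363 of 1006 were called higher, and 19 of the 35 within 2 Mb of Mks1, so the count is near that of the chromosome. With low genes kept 1 of them passed, with no intensity trend 2, with knockout 2 with LIF left out 2, and 0 when a wild type library was dropped. The nearest tested genes lie 110 kb (Supt4a) and 116 kb (Dynll2) from Mks1. Upp1 had 4 tested genes within 2 Mb. Its neighbours Hus1, a DNA damage checkpoint gene 107 kb away (0.69, adjusted p = 0.0172), and Igfbp3, which binds insulin-like growth factors and lies 1904 kb away (1.10, adjusted p = 0.0485), were higher and the imprinted growth inhibitor Grb10, 2794 kb away, was lower (-1.69, limma adjusted p = 0.00440). The nearest gene on the right, Fignl1, did not pass (0.45, adjusted p = 0.111). Without either wild type library none of these 3 was called.

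None of the 10 neighbours of Pnma5 passed, with values from -0.56 to 0.80. Zfp185, 2.44 kb away, gave -0.28 (limma adjusted p = 0.290). Xlr3a, 49.2 kb away and 1 of a family of near-identical X-linked genes whose reads may be shared, gave 0.80 (SE 0.28, adjusted p = 0.105), with 0.718 FPKM in wild type and 1.24 and 2.45 in the knockouts with LIF, and 0 against 0.486 and 1.37 after LIF removal. Dusp9, a MAP kinase phosphatase, gave -0.56 (adjusted p = 0.0664). With knockout 2 after LIF removal left out, 1 neighbour passed.

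**Figure D4:**
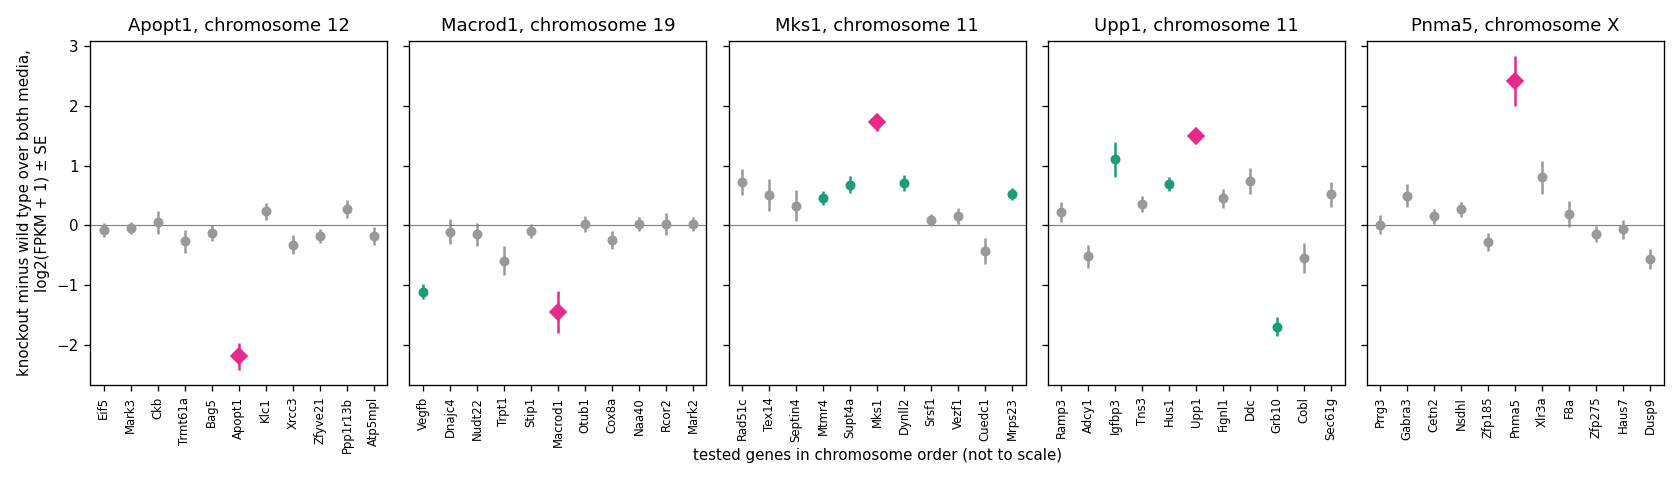
Knockout minus wild type over both media in log2(FPKM + 1), with SE bars, for each of the 5 genes (pink diamonds) and the 5 nearest tested genes on each side in chromosome order, not to scale; green points passed the threshold and grey points did not. The 10 neighbours of Apopt1 and of Pnma5 are all grey, 1 neighbour of Macrod1 is green, and 4 of Mks1 and 3 of Upp1 are green.

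Genes that act with each of the 5 were then examined by lists, whose counts are set beside the 5.79% called higher and 4.67% called lower among all genes, with a median over all genes of -0.03. Of 25 tested complex IV assembly factors besides Apopt1, 3 were higher and none lower (median 0.10). The 3 were Taco1, a translational activator of a complex IV subunit (0.82, limma adjusted p = 0.0148), the copper chaperone Sco1 (0.59, 0.0280) and Coa3 (0.55, adjusted p = 0.0383). All 3 lie on chromosome 11, as do 5 of the 25. At a mean of at least 5 FPKM, 1 of the assembly factors was called lower beside 3 higher.

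Of 24 tested genes that write, read or erase ADP-ribose, 4 were higher and none lower (median 0.01). They were Parp9 (1.12, limma adjusted p = 0.00960), Parp14 (1.05, 0.0189), Parp10 (0.89, 0.0319) and Parp12 (0.89, adjusted p = 0.0336). These are ADP-ribosyltransferase family members that are known as interferon-inducible. Parp14 read 0.578 FPKM in wild type with LIF and 1.06 after LIF removal, so its higher knockout values helped it past the filter. Parp9 read 2.96 FPKM in wild type and 8.07 and 8.81 in the knockouts with LIF, and 6.36 against 12.6 and 14.7 after LIF removal, so that wild type without LIF was close to the knockouts with it. Macrod2, the closest relative of Macrod1, lay between 1.61 and 2.35 FPKM in all libraries and did not pass (0.07, adjusted p = 0.841).

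None of the 22 tested transition zone genes besides Mks1 passed in either direction (median 0.19; 1 passed without knockout 1 with LIF). Of 27 tested genes of pyrimidine salvage and breakdown, 1 was higher and 2 were lower (median -0.04). Nt5c, a nucleotidase that gives nucleosides, was higher (1.08, limma adjusted p = 0.0147), and the kinases Uck2, which phosphorylates uridine (-0.59, 0.0190), and Tk1, which phosphorylates thymidine (-0.56, adjusted p = 0.0324), were lower. Nt5c and Tk1 are on chromosome 11, Tk1 going against the direction of that chromosome. Uck2 read 184 FPKM in wild type and 137 and 112 in the knockouts with LIF, and 122 against 81.1 and 77.8 after LIF removal, while Upp1 was higher in the same libraries. Upp2, the other uridine phosphorylase gene, was listed at 0 in all 6 libraries.

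Among 12 tested Gag-derived genes, 3 were higher and none lower (median 0.42): Rtl8c (1.08, limma adjusted p = 0.0396), Rtl8b (adjusted p = 0.0399; 2.75 FPKM in wild type against 4.49 and 4.31 with LIF, and 3.54 against 9.66 and 14.1 after LIF removal), near-identical copies that may share reads, and the imprinted Peg10 (0.67, adjusted p = 0.0236). Pnma3, a family member of Pnma5, was under 0.15 FPKM throughout. Of 22 listed X-linked germline and testis genes, 7 reached the level tested, and 2 of these were higher: Fmr1nb (2.29, limma adjusted p = 0.00848) and the ubiquitin protease Usp26 (1.64, adjusted p = 0.00928). Usp26 read 0.641 FPKM in wild type and 3.45 and 4.19 in the knockouts with LIF. After LIF removal it read 0.0959 FPKM in wild type against 2.05 and 3.32. As for Pnma5, both wild type libraries lay below all 4 knockout libraries. The filter on low values took the mean over all 6 libraries, and Usp26 passed it only through the knockouts. This favours both its call and the count of 2 of 7.

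In knockout 2 against knockout 1, 3 of these 7 X-linked genes were higher, where 0.458% of all tested genes were. They were the homeobox genes Rhox5 (2.63, SE 0.25, limma adjusted p = 0.0111), Rhox9 (1.58, 0.0433) and Rhox6 (1.39, adjusted p = 0.0491), named here after their values were seen. All 3 belong to 1 gene family on the X chromosome, so they are not 3 separate cases to set against the share of all genes. These calls are lost without a filter on low values and without the intensity trend, where limma called 0 genes in this comparison (1923 and 1578 at an unadjusted p under 0.05). Most calls of this comparison over all genes were also lost with any 1 knockout library left out. Rhox5 read 26.0 FPKM in wild type, 9.91 in knockout 1 and 60.0 in knockout 2 with LIF, and 3.95, 2.60 and 23.9 after LIF removal. Unlike Pnma5, it was thus below wild type in knockout 1.

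**Figure D5:**
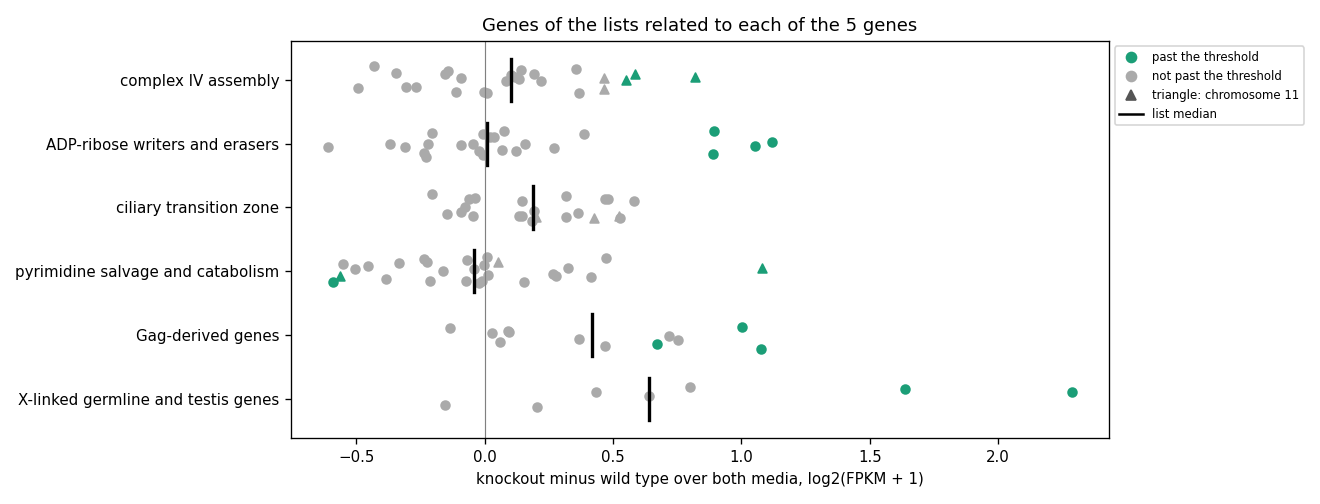
Knockout minus wild type over both media in log2(FPKM + 1) for each tested gene of the 6 lists; green marks genes past the threshold, triangles genes on chromosome 11 and black bars list medians. The 3 green complex IV assembly genes are triangles, and the transition zone list has no green point.

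Each list count between knockout and wild type rests on both wild type libraries: without either, no gene of the lists passed in that comparison. Without knockout 2 with LIF the complex IV, ADP-ribose and Gag-derived counts were 1, 2 and 1, without knockout 2 after LIF removal the first 2 were 1 and 2, and without a filter on low values the complex IV, ADP-ribose, pyrimidine and Gag-derived counts were 1, 1, 0 and 0. At a mean of at least 5 FPKM the ADP-ribose and X-linked counts were 2 and 1.

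The likeness of patterns was measured with Pearson's r of log2(FPKM + 1) over the 6 libraries, as a description that the shared groups and libraries shape. Mks1 and Upp1 were the closest pair of the 5 (r = 0.994), and Apopt1 and Macrod1 had r = 0.883. With r of at least 0.95, 94 of the 11785 tested genes resembled Apopt1, 101 Macrod1, 126 Mks1, 130 Upp1 and 78 Pnma5. With r of -0.95 or less there were 156, 74, 67, 63 and 51 in the same order. Such counts for other genes were not examined. The r with Hnrnpf was 0.955 for Apopt1, 0.849 for Macrod1, -0.789 for Mks1, -0.820 for Upp1 and -0.921 for Pnma5. The choice of the genes on knockout against wild type favours such values. Closest to Apopt1 were Exosc10, an exosome nuclease (0.993), Uchl4 (0.993), whose close paralog may share reads, and Ttc7 (0.990). Rufy3 (0.999), the adenylate cyclase Adcy1 (0.994) and Cox7a2l, a respiratory supercomplex factor (0.990), were closest to Macrod1. Gps2 (0.999), Cisd3 (0.997), both on chromosome 11, and the intraflagellar transport gene Ift172 (0.993) were closest to Mks1. Paip2b (0.998), Gps2 (0.997) and Ift172 (0.996) were closest to Upp1, and Gsdmd (0.990), Mul1 (0.990) and Cog1 (0.988) to Pnma5.

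Cisd3, a mitochondrial iron-sulfur protein, read 26.7 FPKM in wild type and 65.8 and 65.0 in the knockouts with LIF. After LIF removal it read 16.6 FPKM in wild type against 47.6 and 46.5. It was named for its likeness to Mks1 over these same libraries, so its higher knockout values follow from that choice. All knockout libraries lay above both wild type libraries for 11.9% of tested genes. Exosc10, in contrast, moved far less than Apopt1: it read 44.1 FPKM in wild type and 33.4 and 32.0 in the knockouts with LIF, and 43.2 against 33.2 and 31.6 after LIF removal.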

How the data were processed

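RNA-seq levels from 6 libraries were analysed. The authors deposited 1 table of FPKM with a value per gene symbol and library; STAR, Cufflinks and the build mm10 are named per the submitters' processing notes. Versions, annotation and strand use: not given in the sources used here. FPKM summed to between 456155 and 556318 per library; with no read counts, depth and counting error are unknown. Values were analysed as log2(FPKM + 1) for the 11785 genes averaging 1 FPKM or more, using limma 3.58.1 in R 4.3.3 with an intensity trend, two-sided tests and Benjamini-Hochberg adjustment over all tested genes (threshold 0.05). Genotype and medium were additive terms (3 residual and 5.08 prior degrees of freedom). The difference between media came from a fit of 4 groups and knockout 2 against 1 from a fit of line and medium, each with 2 residual degrees of freedom and, respectively, 4.70 and 6.61 prior ones. Each medium has 1 wild type library, assumed to vary like the knockouts. The scripts were tested on simulated data. Positions are from GENCODE M21 (GRCm38, the mm10 assembly) or, where that lacked a symbol, RefSeq, for 99.6% of tested genes; promoters are from RefSeq, with Apopt1 matched as Coa8, for 5 of 5 genes. The genes and lists were chosen with earlier results of these data known. Named were the 5 genes, up to 4 called genes of each list with the lowest p, close paralogs, called and nearest genes among 5 neighbours on each side, and the 3 genes most alike over the 6 libraries, without unnamed models. Genes named outside that rule (Dusp9, Flrt1, Hand1, Tfap2c and the Rhox genes) were chosen after their values were seen. Alternatives covered pseudocount, filter, scaling, trend, a block and each library left out.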

Additional observations from a re-analysis of the deposited data

Results flagged for a closer look

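Pnma5 differed between the knockout numbers: its effect against wild type was larger in number 2 than in number 1 by 1.26 on the log2(FPKM + 1) scale (limma adjusted p = 0.0344), with knockout 2 higher in both media. It was singled out because the difference between the 2 knockout numbers passed its own test. The call was lost in 7 alternatives, among them each knockout library left out, and kept in 5. No group has enough libraries for a check of single outlying samples.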

How the results depend on the processing

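Over both media, 1232 genes passed between knockout and wild type, 335 without a filter on low values, 560 without knockout 2 with LIF, 7 without wild type with LIF and 5 without wild type after LIF removal (5 to 994 over all single libraries left out). For LIF removal the count was 2523 and 817 to 1924 with a library left out: 817 and 821 without wild type with and after LIF, 1395 without knockout 1 with LIF and 1665 without knockout 2 after LIF removal. Knockout 2 against 1 gave 115 genes, 76 with a pseudocount of 0.1, and with limma 0 without a filter (1923 at an unadjusted p under 0.05) and 0 without the intensity trend (1578). It gave 34 to 213 with a library left out: 213 and 204 without wild type with and after LIF, 36 and 34 without knockouts 1 and 2 with LIF, and 38 and 47 without knockouts 1 and 2 after LIF removal. The difference between media gave 0, and 1 without knockout 1 with LIF (0 to 1). It could not be fitted without a wild type library, and Macrod1 is under the stricter filter of a mean of 5 FPKM.

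With the knockout number as a replicate block, 2147 genes passed between knockout and wild type and 3516 for LIF removal, Pnma5 passed for LIF removal (-0.88, adjusted p = 0.00422), and between knockout and wild type 3 transition zone, 6 complex IV (5 higher, 1 lower), 5 Gag-derived, 6 pyrimidine and 4 X-linked genes, 5 neighbours of Upp1 and 2 of Pnma5 passed; the differences between knockouts 1 and 2 in the 2 media correlated with r = 0.366 across genes, and the labels do not say that the numbers pair. Directions turned only for values short of the threshold: knockout 2 against 1 for Mks1 (0.01 without knockout 2 with LIF, 0.18 without knockout 1 after LIF removal; -0.22 to 0.18 with a library left out) and Upp1 (0.19 and 0.04 without knockouts 1 and 2 after LIF removal; -0.22 to 0.19), and the difference between media for Pnma5 (-0.36 without knockout 1 with LIF, -0.50 without knockout 2 after LIF removal; -0.50 to 0.90). The 27 called neighbour and list results named kept their direction in every alternative, added after seeing the data, and lost the threshold in 34 of 178 changes of setting, 37 of 108 with a knockout library left out and 46 of 54 with a wild type library left out. The cause was not tested.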
